A study of Arabidopsis thaliana with 8 samples.

Results

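The *WRKY* genes of Arabidopsis encode plant transcription factors named after the amino acids that begin their DNA-binding domain. Here they were examined as possible targets of CONSTANS (CO), the photoperiodic activator of *FLOWERING LOCUS T*. All protein-coding genes on chromosomes 1 to 5 whose name in the TAIR10.1 RefSeq annotation starts with WRKY were taken, which gave 67 of 27444 genes. The product names of 66 of them state a WRKY protein, and the exception was *WRKY19*, which is annotated under its kinase domain. A further 10 genes that encode WRKY proteins under other names, among them *ABO3*, *TTG2*, *ZAP1* and *RRS1*, were not members and were added only as an alternative. The family and the trio *WRKY60*, *WRKY18* and *WRKY40* were selected on the peaks of these same libraries, so that the counts and fold enrichments of their peaks below are descriptions.

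Both genotypes carried CO fused to the yellow fluorescent protein Citrine and driven by the *SUC2* promoter, which is active in the companion cells of the phloem. All plants of a genotype came from a single transgenic line, *SUC2::CO:CIT* #5, either in the Col-0 wild-type background or in *aba1-6*, a mutant in the zeaxanthin epoxidase needed for abscisic acid (ABA) synthesis. Whole seedlings were grown under long days without further treatment and harvested at ZT12, late in the light period, with 5 g fresh weight per replicate, and their age was not given for these libraries. Each genotype had 2 biological replicates, in which CO:CIT-bound chromatin was precipitated with GFP-Trap nanobodies and compared with the input of the same replicate. No library from plants without CO:CIT was analysed here, and the companion cells were not separated from the other cells of the seedling.

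A peak was assigned to a gene if it overlapped the gene body or the 3000 bp upstream of its start by at least 1 bp. The peak lists held 21054 and 22724 peaks in *SUC2::CO:CIT* replicates 1 and 2, but only 168 and 258 in *SUC2::CO:CIT aba1-6* replicates 1 and 2. The number of fragments in the genome background, recovered from the deposited fold enrichments and p-values, was 11.2 and 10.8 in the *SUC2::CO:CIT* replicates, 3.57 in *aba1-6* replicate 1 and 0.774 in *aba1-6* replicate 2. Both *aba1-6* libraries were thus far shallower, at 31.9% and 6.92% of the depth of *SUC2::CO:CIT* replicate 1, and genotype and depth cannot be told apart by the presence or absence of a peak alone. Base composition also differed, since the GC content around summits (200 bp) averaged 21.8% and 22.1% in *SUC2::CO:CIT* but 41.6% and 40.3% in *aba1-6*.

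WRKY proteins bind the W-box, a DNA element with the core TTGAC, and they are best known as regulators of immunity, leaf senescence and stress responses. In ABA signalling, *WRKY40*, *WRKY18* and *WRKY60* form a small subgroup (IIa) of closely related repressors that interact with each other, and *WRKY60* is itself a target of the other two. *WRKY40* and its relatives also bind the ABA-linked chloroplast protein ABAR, encoded by *GUN5*. CO, in turn, contacts DNA together with NF-Y subunits at CO-responsive elements, whose core is TGTG.

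The sequences at the trio and at other strong peaks are shown first, and the peaks at these genes are described below. Whether sequence accounts for the contrast between *WRKY60* and *WRKY40* was not tested. The following sequences are from the TAIR10.1 genome and run 5′ to 3′ on the coding strand of the gene. Capitals mark TGTG or its complement CACA, and TTGAC or its complement GTCAA. The first is the region before the start of *WRKY60* (chr2:10629357-10629656, + strand), which holds the strongest peak of the family. The second is the same region of *WRKY40* (chr1:30383256-30383555, + strand), where no peak was called. The other sequences are 101 bp around the midpoint of the summits of both *SUC2::CO:CIT* replicates, at a peak upstream of *WRKY18* (chr4:15379680-15379780, + strand), at the peak nearest to *WRKY40* (chr1:30380102-30380202, + strand), and at the strongest peaks of *WRKY22* (chr4:526020-526120, - strand), *WRKY6* (chr1:23019918-23020018, - strand) and *WRKY27* (chr5:21408718-21408818, + strand), which are among the strongest after that of *WRKY60*.
WRKY60 before the start: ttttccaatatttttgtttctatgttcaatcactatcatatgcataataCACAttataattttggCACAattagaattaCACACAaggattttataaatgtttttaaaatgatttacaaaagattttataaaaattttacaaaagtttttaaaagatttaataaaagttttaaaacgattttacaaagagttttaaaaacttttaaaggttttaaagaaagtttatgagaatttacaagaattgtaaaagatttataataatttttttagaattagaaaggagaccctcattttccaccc
WRKY40 before the start: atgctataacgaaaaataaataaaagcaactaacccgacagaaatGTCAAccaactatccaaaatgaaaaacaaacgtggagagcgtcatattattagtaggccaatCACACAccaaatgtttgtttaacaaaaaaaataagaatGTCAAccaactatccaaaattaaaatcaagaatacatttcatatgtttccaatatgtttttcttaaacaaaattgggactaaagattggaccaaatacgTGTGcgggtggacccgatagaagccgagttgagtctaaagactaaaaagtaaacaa
WRKY18 upstream summit: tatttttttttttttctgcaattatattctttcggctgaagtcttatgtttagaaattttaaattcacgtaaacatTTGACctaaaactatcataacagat
WRKY40 distant summit: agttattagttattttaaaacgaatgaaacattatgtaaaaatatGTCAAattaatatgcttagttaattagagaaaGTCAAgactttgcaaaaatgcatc
WRKY22 summit: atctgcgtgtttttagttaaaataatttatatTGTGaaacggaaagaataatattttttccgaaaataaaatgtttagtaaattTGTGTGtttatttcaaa
WRKY6 summit: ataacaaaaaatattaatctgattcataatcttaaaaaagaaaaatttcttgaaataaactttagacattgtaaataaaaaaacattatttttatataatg
WRKY27 summit: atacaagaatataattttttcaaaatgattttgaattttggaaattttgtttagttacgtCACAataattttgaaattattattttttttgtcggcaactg

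None of these stretches overlapped an annotated gene. The *WRKY60* stretch had a GC content of 20.3%, held 4 TGTG words on either strand and contained no TTGAC word. All of these words lay upstream of both summits. The *WRKY40* stretch had a GC content of 32.7%, near the median of 31% over the same 300 bp of 27443 genes, and it held 3 TGTG words, 2 TTGAC words and 2 ACGTG words, the core of the ABA-responsive element. Its TTGAC words lay in both copies of an exact repeat of 23 bp, 100 bp apart. Of all 300 bp promoters, 84.5% held TGTG, 50.5% held TTGAC and 25.5% held ACGTG on either strand, so that each word is common at this length. At the summits, GC content was 13.9% at *WRKY6*, which held neither TGTG nor TTGAC, 20.8% at both *WRKY22* and *WRKY27*, 23.8% at *WRKY18* and 22.8% at the distant peak of *WRKY40*.

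*WRKY60* (AT2G25000, chr2:10629662-10631413, + strand) had a single peak in each *SUC2::CO:CIT* replicate, directly before its start. In replicate 1 the peak spanned chr2:10629178-10629672, its summit lay 150 bp upstream of the start, and its fold enrichment was 7.72, from 93 fragments over a background of 11.2. In replicate 2 the peak spanned chr2:10629179-10629660, its summit lay 175 bp upstream, and its fold enrichment was 8.03, from 94 fragments over 10.8. These ends differed by 1 and 12 bp and the summits by 25 bp. The −log10 q-values were 47.5 and 49.5, and the peak ranked 13th of 21054 and 9th of 22724 by −log10 p. By the mean fold enrichment of its replicates, 7.87, *WRKY60* ranked 5th among the 13632 protein-coding genes with a peak in both. No peak was called at *WRKY60* in either *aba1-6* replicate, and the nearest *aba1-6* peaks were 153888 and 233960 bp away from its start.

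*WRKY18* (AT4G31800, chr4:15382777-15385100, + strand) had 4 peaks in replicate 1 and 3 peaks in replicate 2, all weaker than that of *WRKY60*. The strongest had its summit 268 bp downstream of the gene start in replicate 1, with a fold enrichment of 3.61 from 43 fragments, and 308 bp downstream in replicate 2, with 3.80 from 44 fragments. Both summits lay in the untranslated first exon of the longest transcript and upstream of the starts of the 2 other annotated transcripts, at 420 and 856 bp. A peak at the far end of the window was also found in both replicates, 3061 and 3032 bp upstream by its summit, with fold enrichments of 3.20 and 3.52, although the start of the neighbouring gene AT4G31790 was nearer to it. Summits 1023 and 942 bp upstream, at fold enrichments of 2.87 and 2.28, belonged to the third overlapping pair. The remaining peak of replicate 1, 1443 bp upstream with a fold enrichment of 3.12, overlapped none in replicate 2. No *aba1-6* peak was called at *WRKY18*.

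*WRKY40* (AT1G80840, chr1:30383561-30385499, + strand), regarded as the central member of the trio in ABA signalling, had no peak in its gene body or in the 3000 bp upstream in any of the 4 libraries. A peak found in each wild-type replicate lay just beyond this window. Its summit was 3424 bp upstream in replicate 1, with a fold enrichment of 2.55, and 3394 bp upstream in replicate 2, with 3.80. Its near end lay 3265 and 3267 bp upstream of the start. The next protein-coding gene upstream is 7488 bp away, so that no other protein-coding gene lay between this peak and the start of *WRKY40*. The trio therefore comprised a strong peak next to the start of *WRKY60*, several peaks weaker than it at *WRKY18*, and no peak within the window of *WRKY40*.

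**Figure D1:**
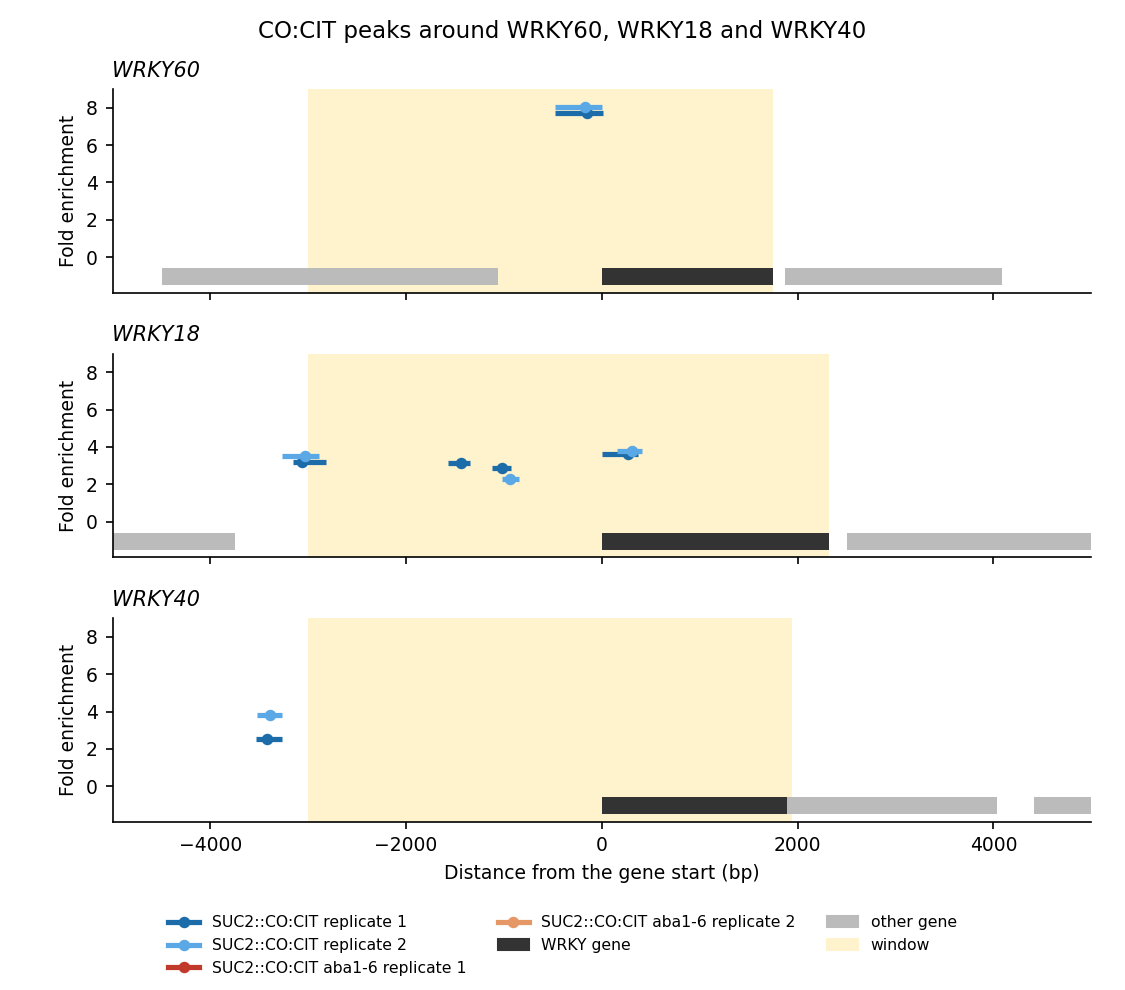
Peaks within 5000 bp of the starts of *WRKY60*, *WRKY18* and *WRKY40*: bars span each peak, dots mark its summit, the height is the fold enrichment over input, and the shaded area is the window of gene body and 3000 bp upstream. The *WRKY60* peaks stand at 7.72 and 8.03, those of *WRKY18* between 2.28 and 3.80, the pair at *WRKY40* lies outside its window, and no *aba1-6* peak is present.

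The absence of *aba1-6* peaks was then set against depth. The fragments and background of each summit were scaled down to the background of each *aba1-6* library, and the probability of reaching the lowest −log10 p of that list (3.11 and 3.23) was computed, assuming an unchanged enrichment and counting error alone. For *WRKY60*, it was 99.997% and 99.999% at the depth of *aba1-6* replicate 1, from the summits of replicates 1 and 2, and 76.9% and 79.9% at the depth of *aba1-6* replicate 2. For *WRKY18*, it was 80.5% and 85.5% at the first depth but only 18.1% and 20.9% at the second. These values start from summits that were selected on the same libraries, which can raise their fragments, so that they are upper values and do not separate depth from genotype.

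Over the family, 49 members had a peak in each *SUC2::CO:CIT* replicate, 0 in *aba1-6* replicate 1 and 1 in *aba1-6* replicate 2. The mean was 49 ± 0 members in *SUC2::CO:CIT* and 0.5 ± 0.707 in *aba1-6* (SD, n = 2 libraries each), a difference of 48.5 (exact permutation test over the 4 libraries, two-sided, p = 0.333, the smallest that 2 against 2 libraries can give). Since the members were selected on these peaks, this test is no evidence about the family. Among all 27444 genes, 15191 and 16055 had a peak in the *SUC2::CO:CIT* replicates, and 210 and 341 in the *aba1-6* replicates. From the strongest peaks of replicate 1, 35.9 of 49 would have been called at the depth of *aba1-6* replicate 1, 10.4 at the depth of *aba1-6* replicate 2, and 48.1 at that of *SUC2::CO:CIT* replicate 2. Those overlapped by a peak were 0, 0 and 42, respectively. From replicate 2 the expected numbers were 36.2, 10.05 and 48.2, and those found were 0, 0 and 43. The calculation also gave more calls than were found in the other *SUC2::CO:CIT* replicate. It starts from the strongest peak of each member and assumes counting error alone, and the source of this excess was not tested. Genotype and depth therefore cannot be told apart from these numbers, and the part of the GC content at the summits, which also differed between the genotypes, was not tested.

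The only *aba1-6* peak in the family lay upstream of *WRKY56* (AT1G64000). It spanned chr1:23744718-23744930 in replicate 2, its summit was 2488 bp upstream of the start within the neighbouring gene *SPO11-2*, and its fold enrichment was 4.64, from 8 fragments over a background of 0.942. Its −log10 q was 2.16, and the GC content at its summit was 35.5%. It overlapped no *SUC2::CO:CIT* peak. In *SUC2::CO:CIT*, the summits of *WRKY56* lay 1447, 749 and 346 bp upstream in replicate 1 and 1422 and 760 bp upstream in replicate 2, with fold enrichments of up to 3.53 and 4.82. For the summits 1447 and 1422 bp upstream, *SPO11-2* had the nearer start.

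The share of members with a peak was above that of all genes in *SUC2::CO:CIT*. It was 73.1% in each replicate (Wilson 95% confidence interval 61.5–82.3%), against 55.4% and 58.5% of all protein-coding genes. A peak in both replicates was present at 46 members, or 68.7% (56.8–78.5%), against 49.7% of all genes. In *aba1-6* the shares of 0% and 1.49% stood beside 0.765% and 1.24% of all genes, and the Wilson interval of 0 of 67 members reached up to 5.42%. These intervals cover counting error only. In the 3000 bp upstream alone, a window of equal length for every gene, 62.7% of members had a peak in both replicates, against 45.7% of all genes. When only peaks of −log10 q 5 or more were kept, the shares were 58.2% and 41.6%. With the gene body and 1000 bp upstream, they were 47.8% and 35.7%, and 14 members were lost, including *WRKY22*, *WRKY65*, *WRKY21* and *WRKY68*.

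The intergenic space and base composition of the *WRKY* genes moved with this share. The median distance from the start of a member to the next protein-coding gene upstream was 3064 bp, against 1112 bp for all genes. The median GC content of the 3000 bp upstream was 30.6%, against 35.1%. All genes were therefore divided into 3 classes of similar size by this GC content. The class of lowest GC content, up to 32.9%, held 48 of the 67 members (71.6%). Within it, 40 of 48 members (83.3%) had a peak in both replicates, against 83.7% of all genes. In the middle class, 6 of 12 members (50%) and 49.4% of all genes had one, and in the highest class, from 36.9%, 0 of 7 members and 16.2% of all genes. Among genes of similar upstream GC content, the shares of members and of all genes were thus almost equal in the lowest and middle classes. Members with a peak in both replicates had a median upstream GC content of 29.4% and a median upstream distance of 3369 bp, whereas the 15 members with no peak had 36.7% and 1299 bp. *WRKY40* was an exception among the latter, with 30.1% and 7488 bp.

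**Figure D2:**
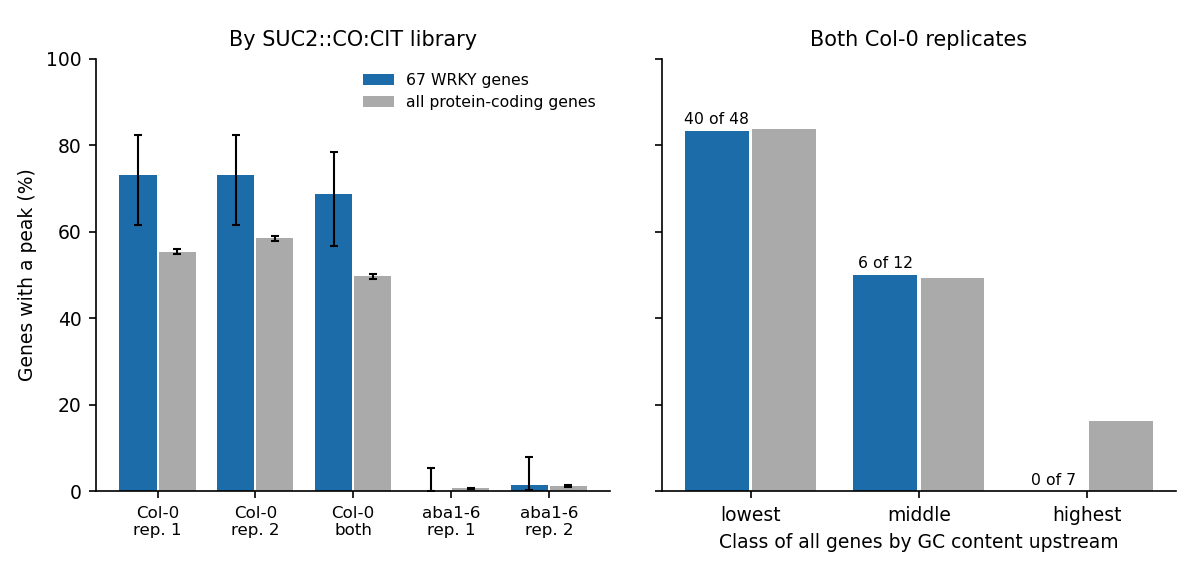
Left, share of genes with a peak in the gene body or 3000 bp upstream for the 67 *WRKY* genes and all protein-coding genes, per library and in both Col-0 replicates, with Wilson 95% intervals. Right, share with a peak in both Col-0 replicates within 3 classes of all genes by the GC content of the 3000 bp upstream, where 40 of 48, 6 of 12 and 0 of 7 *WRKY* genes stand beside 83.7%, 49.4% and 16.2% of all genes.

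The members had 95 peaks in replicate 1 and 106 in replicate 2. This was 1.42 and 1.58 peaks per member, against 0.897 and 0.978 per gene overall. At least 3 peaks were present at 19.4% and 22.4% of members, against 7.85% and 9.38% of all genes. Of the member peaks, 82.1% and 74.5% overlapped a peak of the other replicate, close to the 80.1% and 74.2% of all peaks. Of the 46 members with a peak in both, 45 had a replicate 1 peak that overlapped a replicate 2 peak. The exception was *WRKY30*, where the summits lay 308 and 900 bp upstream. At *WRKY72*, the overlapping replicate 2 peak lay outside the window, with its summit beyond the gene end, 2934 bp downstream of the start. The replicate 2 peak inside the window had its summit 157 bp upstream and overlapped none in replicate 1. Summits lay upstream of the gene in 75 and 85 cases, in introns in 10 and 11, in untranslated exons in 7 and 5, and beyond the gene end in 3 and 5, but none lay in a coding exon. The member itself was the gene with the nearest start for 73 of 95 and 80 of 106 summits.

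Along the gene, summits were most frequent in the last 500 bp before the start, with 18 in each replicate, or 26.9 per 100 members, against 21.4 and 23.5 per 100 genes overall. A further 17 in each replicate lay between 1500 and 1000 bp upstream, or 25.4 per 100 members, against 10.2 and 11.02 per 100 genes overall. In the first 500 bp of the gene, only the peak of *WRKY18* had its summit. The median GC content around the summits was 23.0% in both replicates. The TGTG word was present within 101 bp around 37.9% and 36.8% of member summits, against 35.4% and 35.7% of all summits and 50.6% of all 101 bp tiles of the genome. Among genome tiles below 25% GC the share was 35.7%. TTGAC was present at 14.7% and 18.9% of member summits, against 15.1% and 15.8% of all summits and 14.97% of such AT-rich tiles.

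**Figure D3:**
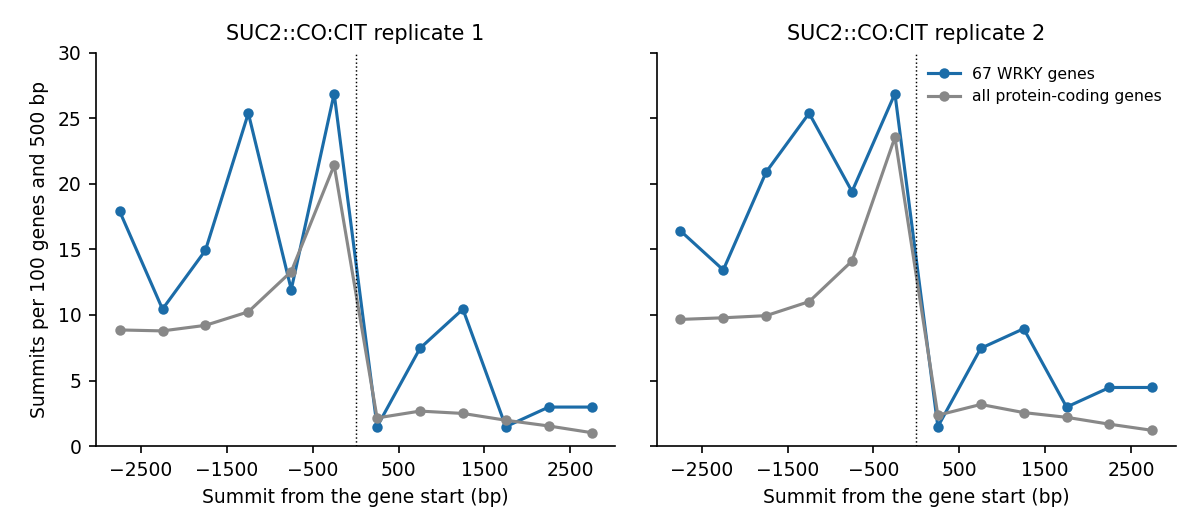
Summits per 100 genes in bins of 500 bp from the gene start (negative values are upstream) for the 67 *WRKY* genes and all protein-coding genes in both *SUC2::CO:CIT* replicates. The *WRKY* genes reach 26.9 in the last 500 bp before the start and 25.4 between 1500 and 1000 bp upstream, where all genes have 10.2 and 11.02.

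The strongest fold enrichments of the 46 members were similar in size in both replicates. The median of their mean fold enrichment was 3.60, against 3.46 for all genes with a peak in both. Across these members the 2 values had a Pearson r of 0.822 and a Spearman rho of 0.758, given as a description, since both libraries share the same gene sequences. At some members the 2 values came from different peaks. At *WRKY10*, for example, the summits lay 2735 bp upstream in replicate 1 and 647 bp downstream of the start in replicate 2. The replicates differed by a median of 0.423 and at most by 1.62, at *WRKY6*. The gap between *WRKY60* (7.87) and the next member, *WRKY22* (5.36), was larger than any of these differences, whereas neighbours further down the order were mostly closer to each other than their replicates.

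Some members linked to immune signalling were among those with strong peaks, whereas others, such as *WRKY33*, had no peak. Whether members with such a role differ from the others was not tested. *WRKY22*, which acts with *WRKY29* downstream of a mitogen-activated protein (MAP) kinase cascade in the response to bacterial flagellin, had fold enrichments of 5.91 and 4.82 at 1847 and 1794 bp upstream. The start of AT4G01245 was nearer to this summit. Its partner *WRKY29* had only 2.71 and 2.62. *WRKY27*, known for its role in bacterial wilt, had 5.01 and 5.02 at 2008 and 1994 bp upstream, among the most similar pairs. *WRKY3*, which acts in resistance to necrotrophic fungi, had 4.60 and 5.07 at 203 and 207 bp upstream. Its close relative *WRKY4* had 3.37 and 3.30 at 3018 and 2988 bp upstream, where the start of *ELF5A-1* was nearer. Thus *WRKY3*, like *WRKY60*, carried its strongest peak directly before the start in both replicates.

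*WRKY6*, which represses the phosphate exporter gene *PHO1* and acts in senescence, had 6.10 in replicate 1 and 4.48 in replicate 2, at 481 and 466 bp upstream. A broader peak further upstream had 3.20 and 4.14. *WRKY42*, which acts on the same phosphate pathway, had 3 overlapping pairs of peaks, the strongest with 4.07 and 3.63. *WRKY74* had a single broad peak of 1377 and 1378 bp with fold enrichments of 5.42 and 4.65, whose summit lay 1333 bp upstream in replicate 1 and 781 bp in replicate 2. *WRKY17*, a repressor of basal defence, had 4.19 and 4.14 at 2792 and 2812 bp upstream, and *WRKY11*, which acts with it, had 4.02 and 3.89 at 1968 and 1965 bp. Both belong to group IId, whose proteins bind calmodulin, as does *WRKY21* with 4.87 and 4.24 at 2594 and 2582 bp. For the *WRKY11* summits, *HCF153* had the nearer start.

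Other strong peaks were at *WRKY65*, with 5.09 and 4.48 at 1692 and 1796 bp upstream, and at *WRKY68*, with 4.19 and 4.48 at 1349 and 1243 bp. For the *WRKY68* summits, AT3G62350 had the nearer start. At *WRKY49* the strongest peak, with 4.27 and 4.82, lay at the far end of the gene, 1329 and 1340 bp downstream of its start, where the start of *LURE1.1* was nearer. *WRKY38*, a repressor of basal defence, had a single peak with 3.78 and 4.31 at 441 and 459 bp upstream. *WRKY55* had its only peak in an intron, 771 and 802 bp downstream of the start, with 3.86 and 4.06. Hence the strongest peak lay close to the start of some members and kilobases away from that of others.

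Most peaks were found at *WRKY47*, with 6 in replicate 1 and 5 in replicate 2. Its strongest summit was 2570 and 2530 bp upstream, with 5.42 and 4.23, and the others extended through the upstream region into introns. *WRKY10*, known as *MINI3* for its role in seed size, had 4 and 5 peaks of at most 3.53 and 3.72. *WRKY31* had 4 and 4 peaks of at most 3.53 and 2.70, each with a counterpart in the other replicate. *WRKY17* with 3 and 4 and *WRKY18* with 4 and 3 followed. *WRKY47* ranked 7th of the 46 members by its mean fold enrichment, whereas *WRKY60*, which ranked first, had a single peak.

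By the structural groups of the family, a peak in both replicates was present at 8 of 13 members of group I, whose proteins typically have a pair of WRKY domains. It was present at 2 of 3 members of group IIa, 6 of 8 of IIb, 9 of 16 of IIc, 5 of 7 of IId, 6 of 7 of IIe and 10 of 12 of group III. Over the family the share was 68.7%, and over all genes it was 49.7%. Differences between the groups were not tested. Group III, which includes the senescence and salicylic acid regulators *WRKY70*, *WRKY54* and *WRKY53*, had mean fold enrichments between 2.86 and 4.04. In group IIe they ranged from 2.58 to 5.36 and in group I from 2.83 to 4.83. The ranges of all groups thus overlapped, apart from *WRKY60*. Groups were taken from the annotation for 48 members and from general knowledge of the family for 18. *WRKY19* was given no group. *WRKY23* and *WRKY45* were kept in group I, as annotated, although both are usually placed in IIc, so that the counts of these groups depend on the annotation.

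**Figure D4:**
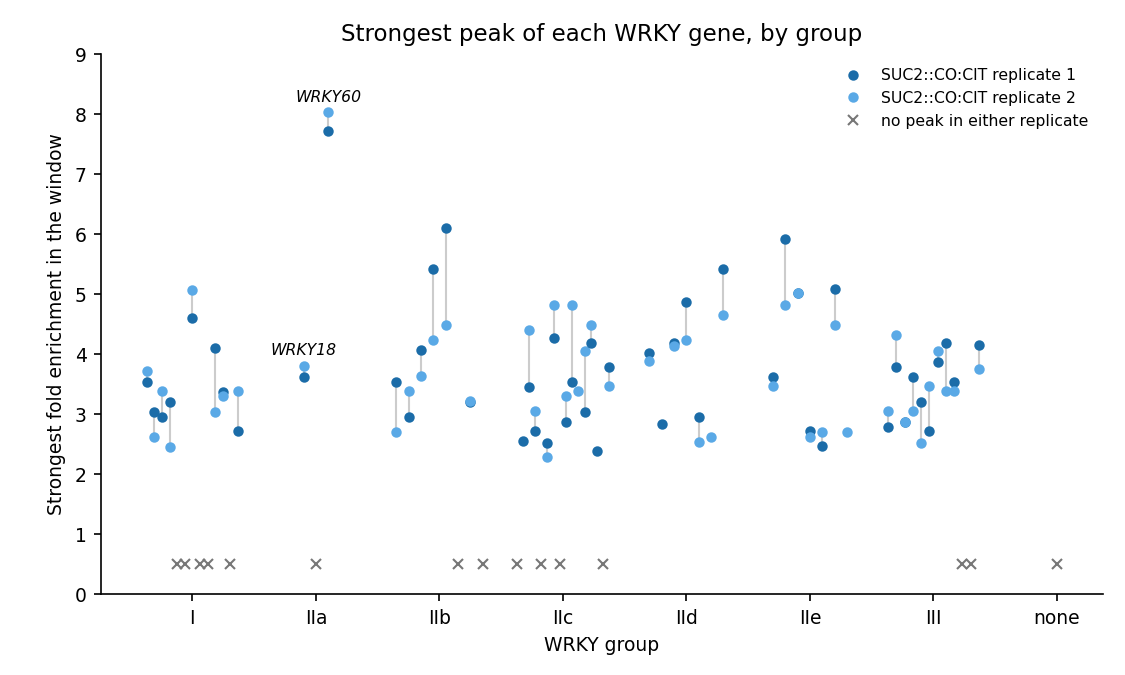
Strongest fold enrichment in the window of each *WRKY* gene in *SUC2::CO:CIT* replicates 1 and 2, joined by a line, by structural group, with crosses for the 15 genes with no peak in either replicate (placed at a fixed height with no value). Joined values can come from different peaks of a gene. *WRKY60* in group IIa stands at 7.72 and 8.03, while the next highest single value is 6.10, at *WRKY6*.

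A peak in only 1 *SUC2::CO:CIT* replicate was present at 6 members (8.96%), against 14.5% of all genes. These members were *WRKY7*, *WRKY13*, *WRKY15*, *WRKY57*, *WRKY69* and *WRKY71*. No peak in either was present at 15 members (22.4%), against 35.8% of all genes, so that the absence of a peak is common. These 15 were *WRKY9*, *WRKY12*, *WRKY19*, *WRKY25*, *WRKY26*, *WRKY32*, *WRKY33*, *WRKY40*, *WRKY43*, *WRKY45*, *WRKY50*, *WRKY61*, *WRKY66*, *WRKY67* and *WRKY75*. The latter include *WRKY33*, the main regulator of camalexin synthesis and of resistance to necrotrophic fungi, and *WRKY25* and *WRKY26*, which act with it in the response to heat. Members known to affect flowering were also in these lists. *WRKY12* and *WRKY13*, which act in opposite directions on flowering under short days, had no peak and a peak in replicate 1 only, respectively. *WRKY71*, which accelerates flowering, had a peak in replicate 1 only, and *WRKY75*, another promoter of flowering, had none.

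The limit of 3000 bp decided which peaks were counted and, for some members, whether a peak was called in both replicates. Just inside it, the near end of a peak was 2989 bp upstream of *WRKY36*, with a fold enrichment of 2.96, and 2980 bp upstream of *WRKY28*, with 1.88, both in replicate 2. Just outside it, the near ends were 3009 and 3117 bp upstream of *WRKY54*, with 3.61 and 3.72. *WRKY36*, *WRKY28* and *WRKY54* had other peaks inside the window in both replicates, so that these peaks did not decide their calls. When the upstream limit was set to 5000 bp, chosen after seeing the peak near *WRKY40*, 51 members (76.1%) had a peak in both replicates, against 60.2% of all genes. The 5 members gained were *WRKY40*, *WRKY15*, *WRKY25*, *WRKY26* and *WRKY75*.

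Genes that act with the trio were also examined. Of 8 ABA and stress response genes, which include known targets of these repressors and *GUN5*, 4 had a peak in both wild-type replicates, 3 in one and 1 in none, against the 49.7% of all genes with a peak in both. Those with both were *GUN5* (3.69 and 3.97), *DREB1A* (3.94 and 3.13), *MYB2* (2.96 and 3.21) and *ABF4* (2.38 and 2.96). *ABI4* and *ABI5*, central transcription factors of ABA signalling, had a weak peak in replicate 1 only. Of 6 kinases and VQ proteins that partner WRKY factors, 4 had a peak in both, namely *SIB1* (5.01 and 4.14), *MPK3* (4.43 and 4.06), *MKS1* (3.94 and 2.87) and *MPK4* (3.37 and 3.63). Of 7 genes for defence regulators and camalexin synthesis, 6 had one, led by *CYP71A13* (4.16 and 4.82), *PAD3* (3.94 and 4.31) and *PAD4* (3.78 and 4.14), followed by *NPR1*, *ICS1* and *JAZ8*. None of these 21 genes had a peak in *aba1-6*, where the shares of all genes were 0.765% and 1.24%. Their fold enrichments all lay below that of *WRKY60*.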

How the data were processed

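Input and ChIP libraries of 2 biological replicates per genotype had been sequenced as paired ends. The authors used fastp for trimming and Bowtie2 for mapping to TAIR10.1. Peaks were then called by them with macs2, separately for every replicate, with the matching input as background. Versions of these tools are not given in the sources used here. Each deposited list gives the fold enrichment at the summit, the ratio of its fragments to those of the local background after both were raised by a pseudocount of 1, so that values of libraries of different depth are not on one scale. The −log10 of the p-value and of the q-value were deposited as macs2 gave them, and the deposited score, which is derived from the −log10 p, was not used. No IDR filter was applied here.

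The fragments behind a summit, and those in its local background, were recovered as the numbers that give both the fold enrichment and the p-value, and the genome background is the most frequent value of a library. This recovery was tested on simulated data. Gene models and sequences were those of TAIR10.1 RefSeq, the build of the peak lists. Numbers of genes were compared by exact permutation of libraries, and words were searched on both strands. Where replicates differ, the precision is limited by the fragments behind each peak. Python 3.11.15, numpy 2.4.6, pandas 2.3.3, scipy 1.17.1 and matplotlib 3.10.9 were used.

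The members, the gene lists and the windows were chosen with earlier results of these data known. Named genes are the trio, the 15 members with the highest mean of the strongest fold enrichment in both *SUC2::CO:CIT* replicates, the 5 with most peaks, any with an *aba1-6* peak, and, by name, those with a peak in 1 or no replicate. Values of *WRKY29*, *WRKY4*, *WRKY42*, *WRKY11* and the members at the window limit or in groups were added after their values were seen. Alternatives were other windows, a stricter q-value, other overlap rules, other WRKY names, no pseudocount, each library left out and the replicate number as a block.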

Additional observations from a re-analysis of the deposited data

How the results depend on the processing

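The number of members with a peak was 48.5 higher in *SUC2::CO:CIT* than in *aba1-6*, and the difference lay between 39 and 53.5 under the other windows, overlap rules, q-value limit and gene names, with an exact permutation p of 0.333 throughout. Leaving out 1 library gave 48 to 49. With the replicate number as a replicate block, the difference was the same and the exact p was 0.5, the smallest that 2 pairs allow; with 2 pairs, whether the numbers pair the samples was not tested. The share of members with a peak in both replicates, 68.7%, moved to 47.8% with the gene body and 1000 bp upstream, lay between 58.2% and 76.1% under the other alternatives, and was 73.1% in either replicate alone. The median strongest fold enrichment, 3.60, became 3.83 without the pseudocount and 3.46 to 3.57 with either replicate alone, and those of *WRKY60* and *WRKY18* became 8.50 and 3.95. The probability of a call at *aba1-6* depth ranged from 99.997% to 99.999% and from 76.9% to 79.9% for *WRKY60*, and from 80.5% to 85.5% and from 18.1% to 20.9% for *WRKY18*, by the replicate used. The depth of *aba1-6* replicate 2 limits what its list can show for most members: the median probability of a call was 16.9% and 16.1%.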
